A study of Mus musculus with 6 samples.

Results

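The genes described here encode the nuclear pore and the carriers that move proteins and RNAs through it. They were picked by symbol, after the RefSeq transcripts in the count tables had been given gene names: numbered Nup genes for the pore, Ipo, Kpna, Kpnb and Tnpo genes for importins, and Xpo1, Xpo4, Xpo6, Xpo7 and Xpot for exportins, with the transcript of highest mean count standing for each gene. The rule found 43 of the 23896 genes with a symbol, namely 21 pore genes, 17 importin genes and 5 exportin genes. Enough counts for testing were present for 42 of them, among 12381 genes tested in all. The remaining member, Nup62cl, a relative of the channel gene Nup62, had 0 counts in every library, which allows up to 3 counts per library.

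The cells were MEL cells, a leukemic mouse line of early red cell precursors in which DMSO switches on hemoglobin genes. Cultures were collected before DMSO (day 0) and after 2 or 4 days in 2% DMSO, with 2 mRNA-seq libraries from separate biological replicates at each day, 6 libraries in all. The libraries contain no culture kept without DMSO to day 2 or day 4, so DMSO and time in culture cannot be told apart. MEL cells are a transformed line, and the day 0 cells, not primary progenitors, are the reference for every comparison.

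The nuclear pore is a ring of repeated protein modules set in the nuclear envelope. An inner ring is held between outer rings built from the Y-shaped Nup107-Nup160 complex, disordered FG repeats fill the channel, and filaments reach into the cytoplasm and a basket into the nucleus. Importin alpha adaptors bind nuclear localization signals and are carried through the channel by importin beta, other members of the importin beta family bind their cargo directly, and exportins leave the nucleus bound to cargo and the GTPase Ran. Maturing red cells condense and finally lose the nucleus, and Xpo7, also called exportin 7, is known as an erythroid-abundant exportin.

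The libraries held between 35294930 and 53899476 counts on transcripts, and levels are given as CPM, counts scaled to the size of the library. Of 9 erythroid marker genes, 8 increased between day 0 and day 4 at an adjusted p below 0.05, among them Hba-a1 (log2 fold change 6.41, SE 0.20, adjusted p = 6.88e-09) and Alas2 (log2 fold change 4.21, SE 0.18, adjusted p = 1.89e-08), and Klf1 decreased (log2 fold change -0.54, SE 0.18, adjusted p = 0.0188). The summed level of these 9 genes was 929 and 992 CPM on day 0, 3925 and 4669 on day 2, and 16298 and 18303 on day 4. Of 11 markers of other blood cells, Elane, Itgam, Cd3e and Mcpt8 stayed below 0.1 CPM in every library, and the summed level of all 11 lay between 213 and 279 CPM at days 0 and 2 and between 544 and 617 CPM at day 4. Itga2b gave the largest part, at 209 and 227 CPM on day 0, 196 and 219 on day 2, and 531 and 606 on day 4. It increased between day 0 and day 4 (log2 fold change 1.38, SE 0.13, adjusted p = 2.39e-06). The megakaryocyte gene Pf4 was at 57.4 and 42.6 CPM on day 0, 14.2 and 12.9 on day 2, and 10.2 and 8.93 on day 4 and decreased (log2 fold change -2.39, SE 0.16, adjusted p = 3.18e-07), the lower-expressed Cd68 (-1.76) decreased as well at day 4, Cpa3 went from 1.89 and 2.30 CPM on day 0 to below 0.1 CPM in the later libraries, and Lyz2 was higher at day 2 only (2.08, adjusted p = 6.99e-04, and -0.04, adjusted p = 0.941, at day 4). The part of these markers in the results below was not tested. The 12 cell cycle markers were all lower at day 4 than at day 0, with summed levels of 6123 and 6263 CPM on day 0, 4770.1 and 4702 on day 2, and 2486 and 2709.6 on day 4. Fewer cells of a type and less RNA per cell cannot be told apart in these bulk libraries, and every level is a share of the counted RNA.

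The question for the pore and transport genes was how their transcripts changed between the uninduced cells, day 2 and day 4. Most of them decreased. Between day 0 and day 4, 30 of the 42 tested members were lower, 3 were higher and 9 did not pass the test (edgeR quasi-likelihood test, adjusted p below 0.05). Over all genes tested, 36.4% were lower and 35.5% higher in the same comparison, 71.8% in either direction. The median log2 fold change of the members was -0.82, against -0.02 over all genes. By class, 15 pore genes were lower and 1 higher of 20 tested (median -0.82), 12 importin genes were lower and 2 higher of 17 (median -0.49), and 3 exportin genes were lower and 0 higher of 5 (median -1.10).

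The decrease was already broad at day 2. Against day 0, 26 members were lower and 0 higher, with a median log2 fold change of -0.51, whereas over all genes 31.5% were lower, 31% were higher and 62.5% were called in either direction, with a median of 0.01. Scaled to total counts instead, 22 members were lower at day 2 and 3, Kpna1, Kpna6 and Tnpo2, were higher. Between day 2 and day 4, 18 members were lower and 2 higher, with a median of -0.30, against 16.2% lower, 14% higher and 30.3% in either direction over all genes, with a median of -0.0046. The calls of this second step were fewer when any single library of day 2 or day 4 was left out, and more when either library of day 0 was left out. The median of the members lay between -0.33 and -0.24 in these fits. The 6 members called in the second step with each library left out in turn were Nup37, Nup43, Nup85, Ipo5, Kpna2 and Xpo1. Summed over all members, the level was 6156 and 5708 CPM on day 0, 4128 and 3991 on day 2, and 3392 and 3306 on day 4, so that the libraries of the 3 days did not overlap. Of the 12 cell cycle markers, 9 were called lower at day 2, and all 12 were called lower from day 2 to day 4. Not called at day 2 were Mki67 (-0.05, adjusted p = 0.776), Top2a (0.08, adjusted p = 0.572) and Cdk1 (-0.21, adjusted p = 0.147). The part of these markers in the decrease of the pore and transport genes was not tested.

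**Figure D1:**
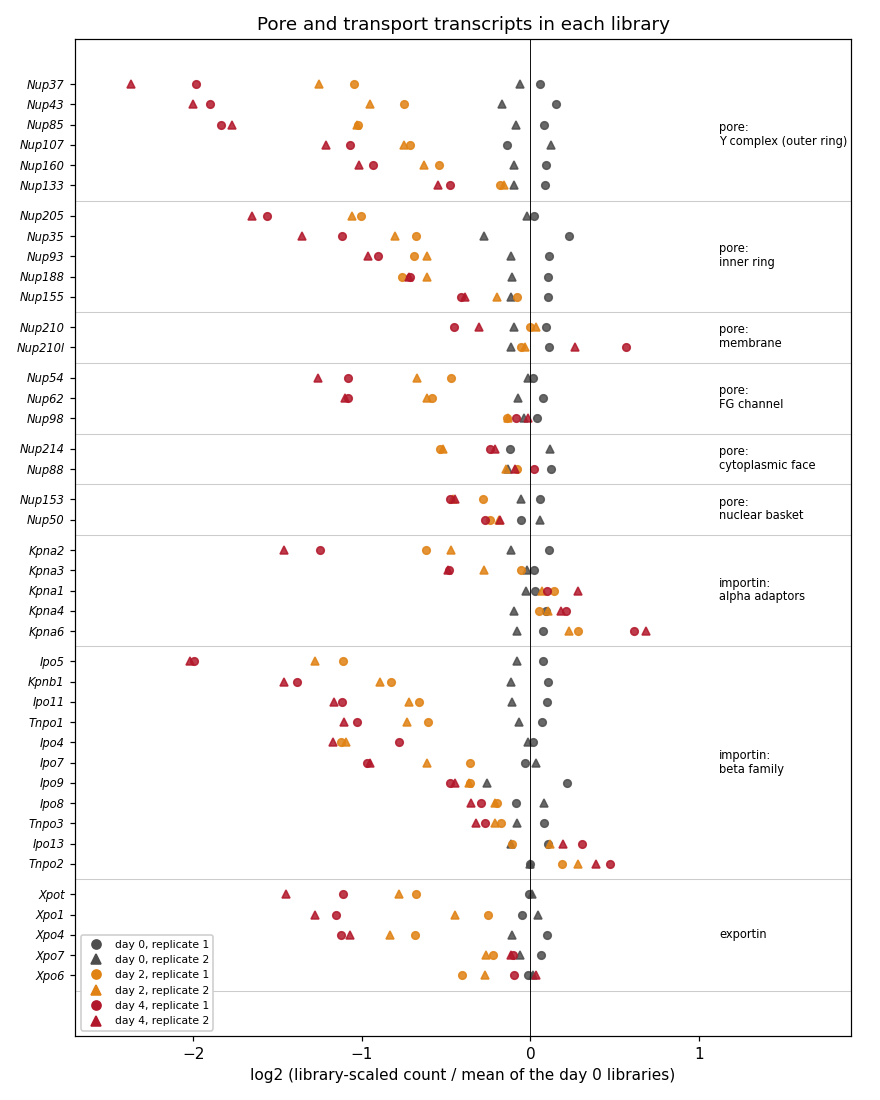
Library-scaled count of each member relative to its mean in the day 0 libraries, on a log2 axis, with circles for replicate 1, triangles for replicate 2 and colours for the day. Kpna7 and Nup62cl are not drawn because they were at or under 3 counts in several libraries. Y complex, inner ring and importin beta genes spread to the left down to Nup37, with a log2 fold change of -2.17 at day 4, and Kpna6 lies farthest to the right at 0.65.

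The promoters of the members were searched because so many members moved in the same direction. A RefSeq promoter entry, 250 bases before to 50 bases after the gene's start on GRCm38.p6, was matched for 34 of the 43 members, and Kpna1, Kpna3, Kpna6, Nup210l, Nup35, Nup43, Nup85, Xpo4 and Xpo7 were not matched. The palindromic MYC-type E-box CACGTG is the core sequence that MYC and related factors are known to bind. It was in a promoter of 7 of these 34 genes (20.6%), against 11.7% of the 9680 tested genes with an entry. Counted by single entry, of which a gene can have several, it was in 7.15% of all 32851 entries, a share in another unit. The 7 genes were Ipo4, Ipo7, Nup54, Nup93, Nup188, Xpot and Tnpo2, and at day 4 the first 6 were lower than at day 0 and Tnpo2 was higher, so the motif was found beside changes in both directions, and the difference between these shares was not tested. In 6 of the 7 a match lay before the start. The sequences below are 30-base windows around the first such match, 5′ to 3′ on the strand of the gene with the E-box in capitals, and they are shown because their genes include both directions of change:
Ipo7: gtgggagccagcCACGTGggccgtgtccgc
Nup54: gacgccccacacCACGTGaaagccacaaac
Nup93: gtcaactccaacCACGTGggcgggagcagg
Nup188: cacgcccaccatCACGTGgcggaagcccac
Xpot: agctccagggagCACGTGcgcggtcctcct
Tnpo2: tacttattctctCACGTGactcaacttggc
These windows lie at chr7:110018166-110018195 on the plus strand (match at position -137 from the start), chr5:92435282-92435311 on the minus strand (-100), chr8:94214377-94214406 on the plus strand (-175), chr2:30286338-30286367 on the plus strand (-66), chr10:121626546-121626575 on the minus strand (-231) and chr8:85036726-85036755 on the plus strand (-155). Searched on both strands, the GATA letters AGATAA or TGATAA were in promoters of 3 of the 34 genes, against 12.7% of tested genes with an entry. These were Ipo5, Kpna7 and Tnpo3. The E2F letters TTTCGCGC, TTTGGCGC or TTTCCCGC were in promoters of 2 genes, Ipo7 and Nup210, against 4.30% of tested genes with an entry. A match describes only the letters of the window.

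The Y complex is the scaffold of the outer rings. Against day 0, the 6 subunits with a transcript of their own under the rule were all lower at day 4 (median log2 fold change -1.47). All 6 were also lower at day 4 than at day 2. Over all genes tested, 36.4% and 16.2% were lower in these comparisons. A further subunit, Nup96, is made from the longest Nup98 transcript, which was not called (log2 fold change -0.05, adjusted p = 0.681). Nup37, a small subunit of the complex, was at 53.9 and 49.7 CPM on day 0, 25.1 and 21.7 on day 2, and 13.1 and 10.0 on day 4. Each day lay below the one before without overlap, and 22.3% of the day 0 level was left at day 4 (log2 fold change -2.17, SE 0.15, adjusted p = 3.89e-07). Nup43, another small subunit, was at 43.5 and 34.8 CPM on day 0, 23.3 and 20.2 on day 2, and 10.5 and 9.79 on day 4. Its libraries were ordered by day in the same way (log2 fold change -1.95, SE 0.15, adjusted p = 6.46e-07). Nup85, which stands in the short arm of the Y, was at 239 and 213 CPM on day 0, 111 and 111 on day 2, and 63.2 and 66.2 on day 4. It also decreased at both steps, with a log2 fold change of -1.02 to day 2 and -0.78 from day 2 to day 4, and of -1.80 in all (SE 0.11, adjusted p = 1.56e-07). Nup107 and Nup160, which give the complex its name, ended at log2 fold changes of -1.14 and -0.97, and Nup133, at the tip of the stem, decreased least (log2 fold change -0.51, adjusted p = 0.00106), with no call in its first step (-0.17, adjusted p = 0.179). The second-step calls of Nup107, Nup133 and Nup160 did not pass the test when any single library of day 2 or day 4 was left out (adjusted p 0.0528 to 0.205). Nup133 shares 461 exonic bases with an antisense gene on the other strand, and whether counting used strand is not given in the sources used here.

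The order of the subunits by level also changed within the complex. Per kilobase of transcript, Nup85 had the highest level of the 6 at day 0, 101 ± 8.09 CPM per kilobase (SD, n = 2), and Nup133 the lowest, 16.8 ± 1.51. At day 4 Nup85 was at 29.0 ± 0.95, Nup107 at 24.7 ± 1.72, Nup37 at 9.05 ± 1.71 and Nup43 at 7.89 ± 0.391 CPM per kilobase, so that Nup37 and Nup43 had passed from above Nup160 (25.4 ± 2.37 at day 0, 12.9 ± 0.509 at day 4) to below it in every library. As a share of the summed per-length level of the 6 subunits, Nup133 was 6.45 and 6.05 percent on day 0, 9.72 and 10.3 on day 2, and 12.3 and 12.4 on day 4.

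**Figure D2:**
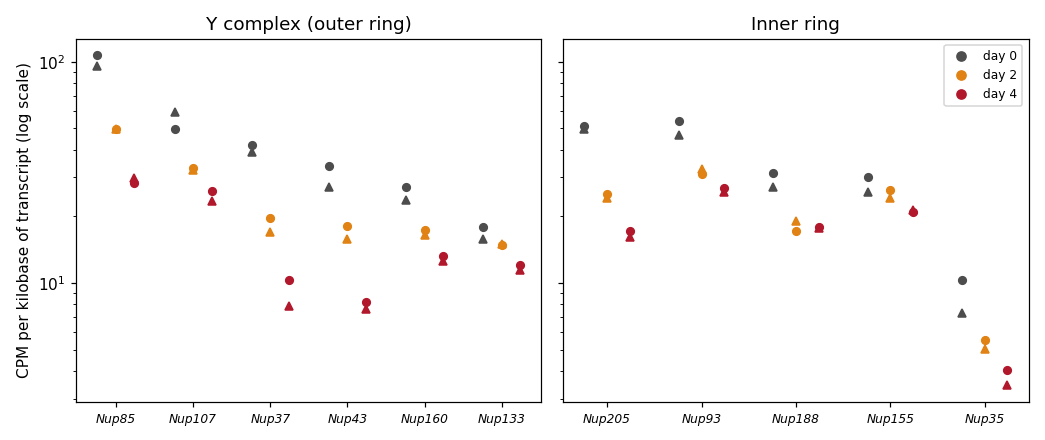
Level per kilobase of transcript, on a log axis, of the Y complex and inner ring subunits in each library, with circles for replicate 1, triangles for replicate 2 and colours for the day. Nup37 and Nup43 lie above Nup160 at day 0 and below it at day 4, and Nup155 and Nup188 in the inner ring change less than Nup205.

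The inner ring decreased too. All 5 of its members were lower at day 4 than at day 0, with a median of -0.93, where 36.4% of all genes tested were lower. Nup205, a large scaffold protein, was at 329 and 319.6 CPM on day 0, 162 and 156 on day 2, and 109.9 and 103 on day 4. No 2 days overlapped, and the first step was the larger in value (-1.03 against -0.57 on the log2 scale). The second step did not pass without replicate 1 of day 2 (-0.55). The difference between the steps did not pass in the main fit (0.46, adjusted p = 0.0843) or in 10 of 13 alternative fits. With DESeq2 this difference passed (0.49, adjusted p = 0.0357). Over both steps Nup205 was lowered by 3.04-fold (log2 fold change -1.61, SE 0.11, adjusted p = 3.08e-07). Nup35, an inner ring subunit with membrane contacts, was at 16.1 and 11.3 CPM on day 0, 8.57 and 7.88 on day 2, and 6.32 and 5.37 on day 4, the lowest level of the ring. Its day 0 libraries differed from each other by more than the day 2 from the day 4 libraries, yet all day 0 values lay above all later ones (log2 fold change -1.23, SE 0.18, adjusted p = 1.09e-04). Of its 31-base words, 87.6% also occur in the annotated gene Gm4353, so its counts are uncertain. Nup93, which anchors the channel proteins, decreased with a log2 fold change of -0.93, and Nup155, which contacts the membrane, with -0.40 (adjusted p = 0.00933). The call of Nup155 did not pass without replicate 1 of day 4 (-0.39, adjusted p = 0.0575). Nup188, the relative of Nup205 in the ring, was at 179 and 155 CPM on day 0, 98.3 and 109 on day 2, and 102 and 101 on day 4. Only its first step passed: the first step was -0.69 (adjusted p = 3.37e-04) and the second -0.03 (adjusted p = 0.873).

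Other pore modules were divided. Among the FG channel genes, Nup54 was at 52.4 and 51.3 CPM on day 0, 37.3 and 32.5 on day 2, and 24.5 and 21.7 on day 4 and fell at both steps (log2 fold change -1.17, SE 0.12, adjusted p = 6.75e-06 for day 4 against day 0). Of its 31-base words, 29.4% are shared with Gm15790. Nup62, the central channel protein that forms a complex with Nup54, decreased likewise, with 46.9% of its day 0 level left at day 4 (log2 fold change -1.09, SE 0.10, adjusted p = 3.44e-06). The second-step calls of Nup54 and Nup62 were lost without replicate 1 of day 2 or replicate 2 of day 4 (adjusted p 0.0582 to 0.0856). Nup98, whose longest transcript encodes a precursor of both Nup98 and Nup96, was at 118 and 111 CPM on day 0, 104 and 104 on day 2, and 108 and 113 on day 4. Its day 0 and day 4 libraries overlapped (log2 fold change -0.05, SE 0.10, adjusted p = 0.681). Both day 2 libraries lay below the others, without a call (-0.14, adjusted p = 0.254). The 4 other Nup98 transcripts counted had log2 fold changes between -0.11 and -0.18 at day 4, none of them called. No passing change at day 4 was found on the cytoplasmic face, where Nup88 was at -0.03 (adjusted p = 0.81) and Nup214, its partner in the filaments, at -0.23 (adjusted p = 0.083). Nup214 was at 104 and 123 CPM on day 0, 78.1 and 79.1 on day 2, and 96.0 and 98.1 on day 4. It was thus lowest at day 2 (log2 fold change -0.53, SE 0.11, adjusted p = 0.00151). Its second step of 0.30 did not pass in the main fit (adjusted p = 0.0558) or in 10 of 14 alternative fits. With DESeq2 that step passed (0.31, adjusted p = 0.0431). In the basket, Nup153 decreased (-0.46, adjusted p = 0.00262) and Nup50, which helps release importin alpha cargo, was at -0.23 (adjusted p = 0.0683). Of the membrane proteins, Nup210 decreased by 0.37 (adjusted p = 0.0111; -0.30 and adjusted p = 0.105 without replicate 1 of day 4). Its relative Nup210l was the only pore member under the rule called higher, from 5.39 and 4.61 to 7.42 and 6.01 CPM (log2 fold change 0.42, SE 0.17, adjusted p = 0.0421). It kept this call in only 7 of 14 alternative fits. DESeq2 was among those that did not give it (0.41, adjusted p = 0.119). The call was also lost without replicate 1 of day 4 (0.27) and without replicate 2 of day 0 (0.30).

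Among the carriers, the importin beta family held the most abundant members. Of its 11 genes, 9 were lower at day 4 than at day 0 and 1 was higher, with a median of -0.96. Over all genes tested, 36.4% were lower and 35.5% higher, 71.8% in either direction. Ipo5, an importin for ribosomal proteins and histones, was at 550.5 and 494 CPM on day 0, 242 and 215 on day 2, and 131 and 129 on day 4. The days were far apart compared with their replicates, and 24.9% of the day 0 level was left at day 4 (log2 fold change -2.01, SE 0.12, adjusted p = 1.56e-07). Of its 31-base words, 14.2% are shared with Gm14857. Kpnb1, importin beta itself and the carrier that all importin alpha adaptors use, was at 841 and 721 CPM on day 0, 441 and 421 on day 2, and 299.6 and 284 on day 4. It decreased at both steps (log2 fold change -1.42, SE 0.13, adjusted p = 2.03e-06), the second of which did not pass without either day 2 library or without replicate 2 of day 4 (adjusted p 0.052 to 0.0938), and 466 of its exonic bases face an antisense gene. Per kilobase, Kpnb1 and Ipo5 had the highest levels of all members at day 0, 132 ± 14.4 and 116 ± 8.80 CPM per kilobase, and at day 4 Kpnb1 was at 49.5 ± 1.88 and Ipo5 at 28.7 ± 0.385, below Tnpo3 at 36.4 ± 0.959.

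Ipo11, an importin for ubiquitin-conjugating enzymes, was at 92.1 and 79.8 CPM on day 0, 54.4 and 52.2 on day 2, and 39.6 and 38.4 on day 4 (log2 fold change -1.14, SE 0.11, adjusted p = 3.78e-06). Tnpo1, transportin 1, which imports many RNA-binding proteins, was at 174 and 159 CPM on day 0, 109 and 100.1 on day 2, and 81.6 and 77.4 on day 4 (log2 fold change -1.07, SE 0.11, adjusted p = 5.43e-06), and 18.6% of its 31-base words are shared with Gm6493. In both genes no 2 days overlapped, although their second-step calls were lost when either library of day 2 or of day 4 was left out (adjusted p 0.05 to 0.191). Ipo7 ended at -0.96, and Ipo4, which imports histones, at -0.96. Ipo4 was at 121 and 118 CPM on day 0, 54.7 and 55.8 on day 2, and 69.6 and 53.0 on day 4. No further decrease was called after day 2, and its day 4 replicates were the farthest apart of any day, while 60% of its 31-base words also belong to the readthrough gene Gm49378. Smaller decreases were called for Ipo9 (-0.46), Ipo8 (-0.32) and Tnpo3 (-0.29), which imports splicing factors, and each of these 3 calls was lost when some library was left out, Ipo9 without replicate 1 of day 0 (-0.21, adjusted p = 0.0691) or replicate 1 of day 4 (-0.45, adjusted p = 0.0587), Ipo8 without either day 4 library (adjusted p = 0.0611 and 0.112), and Tnpo3 without any 1 of 5 libraries (adjusted p up to 0.147).

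The beta family also held the exceptions. Tnpo2, transportin 2, a close relative of Tnpo1, was at 113 and 113 CPM on day 0, 129 and 137 on day 2, and 156 and 148 on day 4. It was higher at day 4 than at day 0 in every library (log2 fold change 0.43, SE 0.10, adjusted p = 0.00284), although 543 of its exonic bases face an antisense transcript. Tnpo1 and Tnpo2 thus had calls in opposite directions. Their per-length levels were 19.7 ± 1.30 and 23.2 ± 0.00266 CPM per kilobase at day 0 and 9.41 ± 0.353 and 31.3 ± 1.23 at day 4. Ipo13 did not pass at 0.25 (adjusted p = 0.0767).

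Of the 6 importin alpha adaptors, 3 were lower at day 4 than at day 0, 1 was higher and 2 were not called, which is 66.7% called against 71.8% of all genes. Kpna2, the adaptor known to be high in dividing cells, was at 63.5 and 54.3 CPM on day 0, 38.3 and 42.4 on day 2, and 24.8 and 21.4 on day 4. It decreased at both steps without overlap (log2 fold change -1.35, SE 0.13, adjusted p = 3.73e-06), although the first step did not pass without replicate 1 of day 2 (-0.47, adjusted p = 0.0518). Its counts are uncertain, since 94.2% of its 31-base words also occur in other annotated genes, 12 of them, led by Gm10184. Kpna6 went the other way and was at 49.3 and 44.3 CPM on day 0, 56.9 and 54.9 on day 2, and 71.7 and 75.3 on day 4. Each day lay above the one before (log2 fold change 0.65, SE 0.11, adjusted p = 1.88e-04), and the first step alone did not pass (0.26, adjusted p = 0.0504). The second step was called (0.39, adjusted p = 0.0163). That call was lost when any single library of day 2 or day 4 was left out, with values of 0.35 to 0.43. Kpna3 decreased by 0.49 (adjusted p = 0.00268), whereas Kpna1 at 0.19 (adjusted p = 0.126) and Kpna4 at 0.20 (adjusted p = 0.115) did not pass. Kpna7, an adaptor known from oocytes and early embryos, had 62 and 54 counts on day 0, 0 and 1 on day 2, and 2 and 0 on day 4. At a floor of 3 counts per library it was at least 19.6-fold lower at day 2 and at least 17.5-fold lower at day 4, from a level of only 1.30 CPM.

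The makeup of the adaptor transcripts shifted with these changes. Kpna2 took 40.4 and 38.6 percent on day 0, 28.8 and 31.9 on day 2, and 20.4 and 17.5 on day 4, of the summed per-length level of the 6 adaptors. Kpna6 took 11.3 and 11.3 percent on day 0, 15.4 and 14.8 on day 2, and 21.2 and 22.2 on day 4. Kpna2 was the leading adaptor in the libraries of days 0 and 2, and at day 4 it ranked below Kpna4 and Kpna6 in both libraries. These shares rest on the same counts as the fold changes above, with the same uncertainty for Kpna2.

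**Figure D3:**
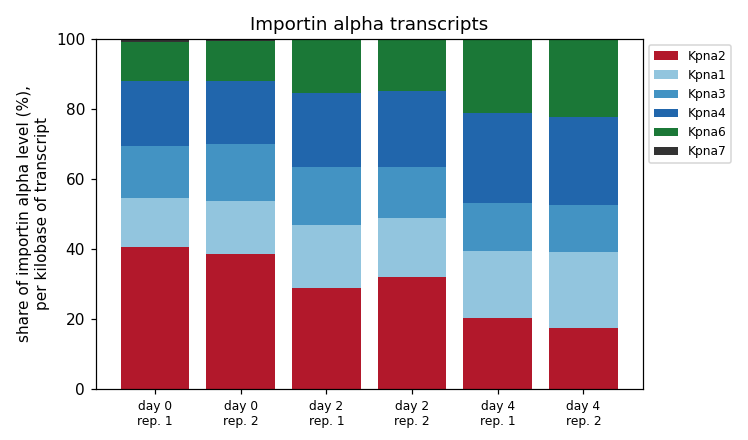
Share of each importin alpha transcript in the summed per-kilobase level of the 6 adaptors, in percent, for each library (stacked bars, each adding to 100). The Kpna2 share is largest at day 0, at 40.4 and 38.6%, and the Kpna6 share is largest at day 4, at 21.2 and 22.2%.

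Xpo7 was compared with the other exportins because of its known abundance in erythroid cells. The gene lies at chr14:70662126-70770864 on GRCm38, and it was measured at 97.3 and 89.2 CPM on day 0, 79.9 and 77.6 on day 2, and 86.8 and 85.9 on day 4. No increase was found: the highest library was one of day 0, the lowest was one of day 2, and day 4 lay between. The log2 fold change was -0.24 at day 2 (SE 0.10, adjusted p = 0.0524), 0.13 from day 2 to day 4 (SE 0.10, adjusted p = 0.337) and -0.11 at day 4 (SE 0.10, adjusted p = 0.337), none of which passed. The day 2 value lay near the threshold, and it passed without replicate 2 of day 0 (-0.31, adjusted p = 0.0129). No 31-base word of the transcript occurs in another gene.

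The exportins Xpot, Xpo1 and Xpo4 decreased. Xpot, the tRNA exportin, was at 271 and 273 CPM on day 0, 170.0 and 158 on day 2, and 126 and 99.7 on day 4. No 2 days overlapped (log2 fold change -1.27, SE 0.13, adjusted p = 5.34e-06), though 23.1% of its 31-base words are shared, mostly with Gm7389. Its second step did not pass without either day 2 library or without replicate 2 of day 4 (adjusted p 0.0524 to 0.121). Xpo1, the main exportin for proteins with leucine-rich signals, was at 255 and 272 CPM on day 0, 221 and 194 on day 2, and 119 and 109 on day 4. Its second step was the larger in value (-0.35 against -0.87, with log2 fold change -1.21, SE 0.12, adjusted p = 3.95e-06 over both steps). The difference between its steps did not pass in the main fit (-0.52, adjusted p = 0.0702) or in 10 of 13 alternative fits. With total counts this difference passed (-0.80, adjusted p = 0.0104). The first step of Xpo1 did not pass without replicate 2 of day 2 (-0.25) or with total counts (-0.15, adjusted p = 0.291). Xpo4, which carries eIF5A, was at 61.3 and 53.1 CPM on day 0, 35.5 and 32.2 on day 2, and 26.3 and 27.2 on day 4 and was lower at day 4 (log2 fold change -1.10, SE 0.12, adjusted p = 9.57e-06).

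Xpo6, the exportin for actin and profilin, was the only member whose steps were called in opposite directions. It was at 107 and 109 CPM on day 0, 81.7 and 89.7 on day 2, and 101 and 111 on day 4. Both day 2 libraries were below all others, and the day 0 and day 4 libraries overlapped (-0.34, adjusted p = 0.0155, then 0.31, adjusted p = 0.0449, and -0.03, adjusted p = 0.814, over both). Scaled to total counts, neither step passed (-0.14, adjusted p = 0.27, and 0.22, adjusted p = 0.132). Both calls also depended on single libraries. The first did not pass without replicate 1 of day 2 (-0.27, adjusted p = 0.154), and the second did not pass when any single library of day 2 or day 4 was left out (adjusted p 0.0842 to 0.334).

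**Figure D4:**
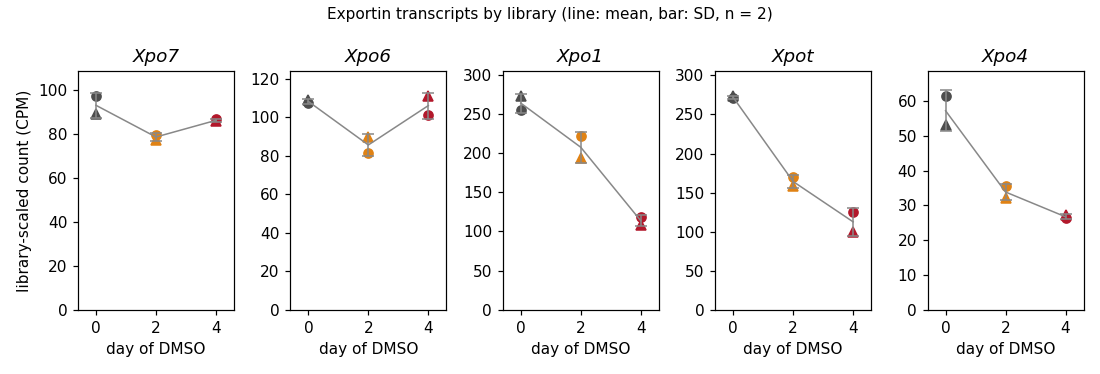
Library-scaled counts of the 5 exportins against the day of DMSO, with circles for replicate 1, triangles for replicate 2, a line through the daily means and bars of 1 SD (n = 2). Each axis starts at 0. Xpo1, Xpot and Xpo4 decline to day 4, and Xpo7 and Xpo6 have their lowest libraries at day 2.

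Ratios within a library, which no scaling between libraries can change, gave the standing of Xpo7 among the exportins. The log2 ratio of Xpo7 to Xpot counts was -1.48 and -1.61 on day 0, -1.09 and -1.03 on day 2, and -0.53 and -0.21 on day 4, a mean gain of 1.17 to day 4. Against Xpo4 the ratio gained 0.98 and against Xpo1 1.10, and against Xpo6 it moved by -0.08. A two-sided exact permutation test of the slope on day, over 90 arrangements, gave p = 0.0222 for Xpot and for Xpo4 (0.0444 after adjustment over 4 ratios), the smallest p that 3 days of 2 libraries can give. The exact permutation p was 0.0444 for Xpo1 (adjusted 0.0593) and 0.578 for Xpo6 (adjusted 0.578). Measured per kilobase, Xpo7 took 14.7 and 13.4 percent on day 0, 16.0 and 16.5 on day 2, and 21.8 and 22.6 on day 4, of the summed exportin level. Xpo6 took 16.3 and 16.5 percent on day 0, 16.4 and 19.1 on day 2, and 25.5 and 29.3 on day 4, so its share at day 4 was above that of Xpo7. Xpo1 took 33.6 and 35.5 percent on day 0, 38.5 and 35.8 on day 2, and 25.9 and 24.9 on day 4. The larger share of Xpo7 at day 4 thus came with its own level not called as changed and with the levels of Xpo1, Xpot and Xpo4 lower.

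Taking the calls of the 3 comparisons together, the 42 tested members fell into 9 patterns, and the commonest, lower in all 3, held 16 of them, among them Nup37, Nup85, Nup205, Ipo5, Kpnb1, Kpna2, Xpo1 and Xpot. Another 8 were lower at day 2 and at day 4 against day 0 with no call between days 2 and 4, including Ipo4, Nup188, Nup93 and Xpo4. A group of 7 was not called in any comparison, namely Ipo13, Kpna1, Kpna4, Nup50, Nup88, Nup98 and Xpo7. Over all genes tested, 31.5%, 16.2% and 36.4% were lower at day 2 against day 0, day 4 against day 2 and day 4 against day 0. No more than 16.2% of all genes can thus have been lower in all 3. In either direction, 62.5%, 30.3% and 71.8% of all genes were called, and the shares of the other patterns over all genes are not given here. These patterns rest on passing or not passing and were not tested against each other. When the second step was tested against the first, 5 of the 42 members passed (11.9%), compared with 30% of all genes. They were Ipo4, Nup214, Nup188 and Xpo6, whose second step was above the first by 0.65 to 1.26 on the log2 scale, and Kpna7, whose later counts were at the floor. None of these 5 passed in every fit that left out 1 library (Ipo4 had adjusted p = 0.0677 and 0.0555 without replicate 1 or 2 of day 2).

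**Figure D5:**
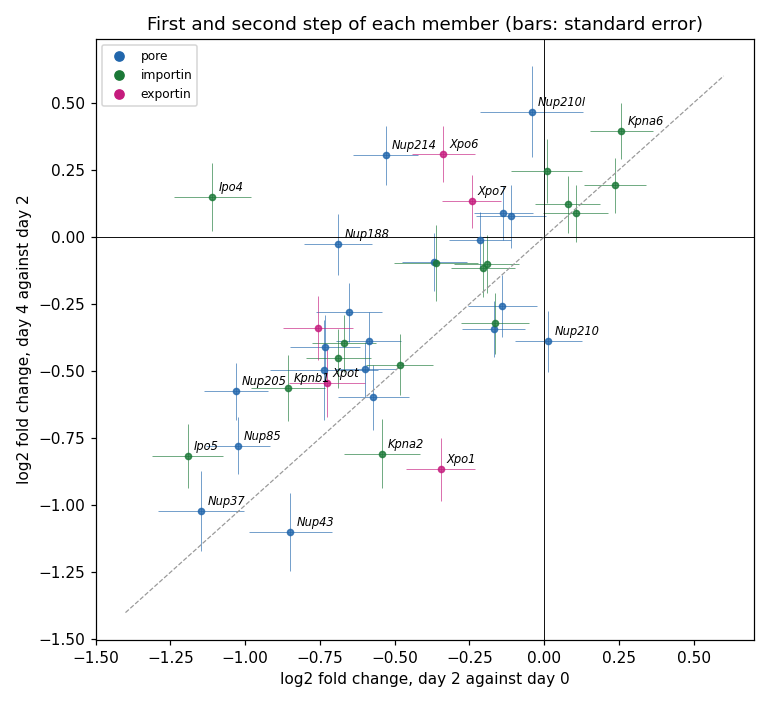
Log2 fold change of each member from day 0 to day 2 (horizontal) and from day 2 to day 4 (vertical), with bars of 1 standard error, the class in colour and a dashed line where both steps are equal. Most members lie in the lower left corner, where both values are below 0, and Ipo4, Nup214 and Xpo6 are among those below 0 on the horizontal axis and above 0 on the vertical axis.

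Genes of the same pathway that the symbol rule left out mostly decreased too. Of 10 other pore genes, 7 were lower and 1 higher at day 4 than at day 0. Beside this count and those below, 36.4% of all genes tested were lower and 35.5% higher, 71.8% in either direction. The Y complex subunits Seh1l (-0.99) and Sec13 (-1.32), the basket protein Tpr (-0.66), the cytoplasmic filament protein Ranbp2 (-0.71) and the membrane protein Ndc1 (-0.86) were among those that decreased, and Rae1 increased (0.44, adjusted p = 0.00797). All 8 genes of the Ran cycle and other carriers were lower, among them Ran (log2 fold change -2.10, SE 0.11, adjusted p = 6.85e-08), its exchange factor Rcc1 (-2.19), its activating protein Rangap1 (-1.34), the importin alpha recycling factor Cse1l (-1.06) and Xpo5 (-1.39), the exportin of microRNA precursors. Ranbp1 was lower as well, but its day 0 libraries stood apart, at 169 and 498 CPM. Of 10 mRNA export genes, 7 were lower, such as Alyref (-1.34) and Nxt1 (-1.37), and the export receptor Nxf1, the partner of Nxt1, was higher (0.43, adjusted p = 0.00474). The channel gene Nupl1, which is also named Nup58 and which its older symbol kept out of the rule, decreased by 0.95. Nupl2, also named Nup42 and missed by the rule for the same reason, was higher at day 2 (log2 fold change 0.41, SE 0.13, adjusted p = 0.0203) and at 0.30 at day 4 (adjusted p = 0.0652).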

How the data were processed

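The authors sequenced stranded mRNA libraries, trimmed adapters with cutadapt and aligned reads to mm10 with TopHat 2.1.0. HTSeq is named in the submitters' processing notes, and the strand setting of counting is not given in the sources used here. The deposited values are raw read counts per RefSeq transcript, in which isoforms of 1 gene can share reads. A line for reads on no feature (50.5 to 58.4% of a library) was left out. Symbols came from the RefSeq table (GRCm38.p6, the same build as mm10) for 32195 of 32654 transcripts and from GENCODE for 191, and 268 had none.

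Counts were fitted once over the 6 libraries with edgeR 4.0.16 (R 4.3.3; TMM factors 0.921 to 1.07; filterByExpr by day; quasi-likelihood tests; Benjamini-Hochberg over 18351 transcripts; called at an adjusted p below 0.05), with 1 mean per day and no block, after checks on simulated data. CPM are counts divided by TMM-scaled library sizes. Same-numbered replicates were not treated as pairs, since their deviations correlated at 0.0316, 0.0451 and 0.0791. Gene lengths, exon overlaps and shared 31-base words came from GENCODE M21 transcripts. Alternatives included DESeq2 1.42.0, other scalings and leaving out each library, and the promoter motifs and the difference between steps were added after seeing the data. Xpo7 and up to 6 pore, 5 importin and 3 exportin genes with the largest called day 4 change, plus any member with opposite called steps, are given by library. Members and gene lists were chosen with earlier results of these data known. Of the listed markers of other blood cells, 1 is left out and not reported here. The edgeR p-values set a change against a spread estimated over all 6 libraries, with information shared across transcripts. The permutation p-values rank a slope among 90 arrangements of the days. Both kinds concern these libraries only.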

Additional observations from a re-analysis of the deposited data

Results flagged for a closer look

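For 4 members the change from day 2 to day 4 differed from that from day 0 to day 2, by an edgeR test of the difference itself. The second step minus the first was 1.26 on the log2 scale for Ipo4 (adjusted p = 0.00269), 0.835 for Nup214 (adjusted p = 0.00925), 0.660 for Nup188 (adjusted p = 0.0288) and 0.646 for Xpo6 (adjusted p = 0.0228). The steps share the day 2 libraries, and each of the 4 differences failed the test when either library of day 2 was left out, with adjusted p from 0.0555 to 0.309. Scaled to total counts, the differences of Nup188 (0.38, adjusted p = 0.174) and Xpo6 (0.36, adjusted p = 0.148) did not pass, and those of Ipo4 and Nup214 did. No group had more than 2 libraries, so single libraries were not tested for standing apart.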

How the results depend on the processing

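Values in this paragraph follow the order day 2 against day 0, day 4 against day 2, and day 4 against day 0. Of the members called, 19 of 26, 6 of 20 and 27 of 33 kept their call in each of 14 alternative fits. Leaving out 1 library, which leaves its day with 1 sample assumed to vary like the others, gave 21 to 30, 6 to 28, 27 to 35 called members (pore 11 to 15, 3 to 15, 13 to 18, importins 7 to 10, 2 to 9, 11 to 14, exportins 3 to 5, 1 to 4, 3 to 3) and medians of -0.52 to -0.44, -0.33 to -0.24, -0.89 to -0.72 (pore -0.61 to -0.51, -0.37 to -0.33, -0.92 to -0.72, importins -0.46 to -0.28, -0.15 to -0.0901, -0.69 to -0.47, exportins -0.44 to -0.33, -0.41 to -0.27, -1.18 to -0.995). Counting only calls with a log2 size of 1 or more left 6, 2, 17 called members (pore 3, 2, 8, importins 3, 0, 6, exportins 0, 0, 3). Scaling to total counts moved the median of all genes to 0.21, -0.09 and 0.10 and those of the members to -0.31, -0.38, -0.71 (pore -0.38, -0.45, -0.71, importins -0.17, -0.18, -0.37, exportins -0.15, -0.42, -0.98), with 2 exportins called at day 2. Relative to all genes the members then stood at -0.52, -0.30 and -0.81, as before, and 3 members were called higher and 22 lower at day 2, while at day 4 Kpna1, Kpna4 and Ipo13 gained a higher call and Ipo8, Nup155, Nup210 and Tnpo3 lost their lower call. Xpo7 at day 2 passed with RLE factors (-0.27, adjusted p = 0.0341), with DESeq2 (-0.27, adjusted p = 0.0394) and without replicate 2 of day 0 (-0.31). The slope of its ratio to Xpo6 was -0.02 log2 per day and ran from -0.0457 to 0.0057 with a library left out, turning positive without replicate 2 of day 4, and it did not pass its exact permutation test. The fit with a replicate block called 26, 21 and 33 members. The shares of all genes called with a library left out, with the size cut or with the block are not given here. The counts of members in those fits therefore have no background beside them. Some members not called in the main fit gained a call in an alternative fit, such as Xpo4 from day 2 to day 4 with total counts (-0.42, adjusted p = 0.0230). Where a cause is not given above, the cause was not tested. Kpna7 and Nup210l had low counts, and the part of depth in their calls was not tested. Kpna7 kept its calls against day 0 in each of 14 alternative fits. The size of its decrease is only bounded, since its later counts were at the floor. Nup210l kept its day 4 call in 7 of 14.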
